A study of Homo sapiens with 15 samples.

Results

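The transcriptome described here is that of HEK-293T cells labelled untransduced, in contrast to the other groups, which were transduced with Cas9 and a guide RNA. HEK-293T is an established human line derived from embryonic kidney cells transformed with adenovirus DNA, into which the SV40 large T antigen was later introduced. All members of this group were used, namely 3 of the 15 samples in the series, labelled replicates 1, 2 and 3. The other samples of the series, in which guide RNAs against THAP1 or control guide RNAs were delivered, were not used, and no groups were compared. The labels give the genotype of the untransduced cells as wild-type. By contrast, the study describes its RNA-seq as done in reporter cells that overexpressed PSMB5, and its methods give single cell cloning of the knock-in reporter. For the THAP1 knockout the study reports a purified population in place of single cell clones. The level of PSMB5 itself is therefore given first among the results. The study's reporting summary describes the RNA-seq replicates as biological, while the labels name no separate culture or passage, so what the SD over the 3 libraries covers is known only in part.

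In a cultured line the most abundant transcripts are largely those of the machinery that makes proteins and energy. Other genes record the tissue of origin. Transcription factors such as the SALL, PAX and HOX proteins mark embryonic fields, while transporters, keratins and hormones mark differentiated cells. HEK-293 cells and their derivatives are known for a mixed identity, in which features of embryonic kidney, neuronal and mesenchymal cells are found together.

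The libraries were made from polyadenylated RNA. Their totals, worked back from the deposited values, were 30400149, 36548570 and 30469780 reads in replicates 1, 2 and 3. These are the totals to which the values were scaled and not reported sequencing depths. Levels are given as RPM, the reads of a gene scaled to a common library total and the linear form of the deposited log2 values. Summed over the 35805 listed gene lines, the reads came to between 90.8% and 91.0% of each total. Reads in overlapping lines can be counted more than once in this sum and in the shares of reads below. A single read was worth between 0.0274 and 0.0329 RPM. A gene with 0 reads can thus have been missed up to a level of 3 reads, or 0.0821 to 0.0987 RPM depending on the library, a limit that covers counting error only. A gene was taken as present with at least 1 RPM in all 3 libraries, as near absent with less than 0.1 RPM in all 3, and as low otherwise. These limits on RPM favour long transcripts, so levels of different genes were compared as RPM per kb of exon, using the length of the canonical GENCODE transcript. An order given in RPM is an order of the reads that genes held, not of their transcript levels.

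By these limits 13752 lines (38.4%) were present, 4981 were low and 17072 (47.7%) were near absent, of which 13510 had 0 reads in every library. Of the 19479 lines matched to a protein-coding gene, 12451 (63.9%) were present, with a median of 30.8 RPM. Of the 12988 lines matched to a long non-coding RNA, 1023 (7.88%) were present, with a median of 3.99 RPM. Above the threshold, 9940 lines reached 10 RPM in all 3 libraries, 1724 reached 100 RPM and 86 reached 1000 RPM. The line between present and low was not a gap: the lowest of the 3 values lay between 1 and 1.2 RPM for 247 lines and between 0.8 and 1 RPM for 323 lines.

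**Figure D1:**
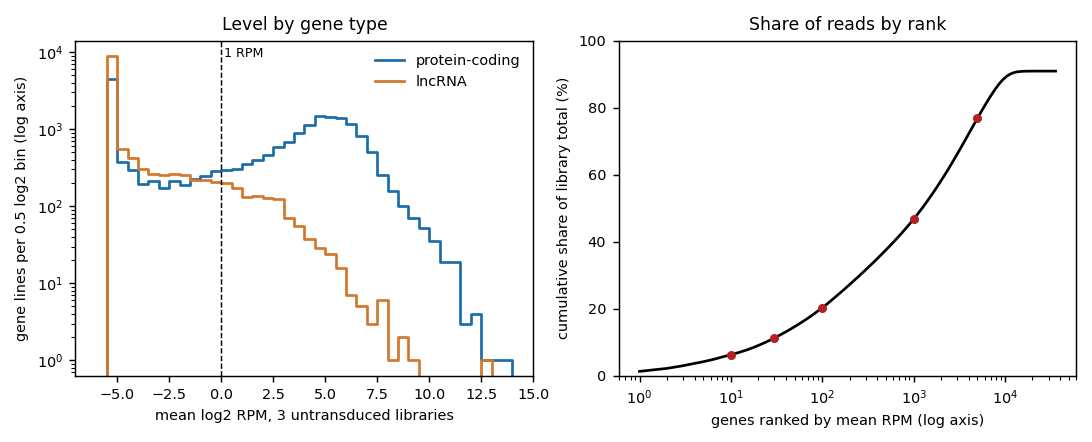
Left, number of gene lines (log axis) by mean log2 RPM over the 3 untransduced libraries, for lines matched to protein-coding genes (blue) and long non-coding RNAs (orange), with a dashed line at 1 RPM. Right, cumulative share of the library total (%) against the rank of genes by mean RPM (log axis), with red points at the 10, 30, 100, 1000 and 5000 most abundant genes; the curve reaches 20.2% at 100 genes and 76.9% at 5000 genes.

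PSMB5, which encodes the chymotrypsin-like catalytic subunit of the proteasome, was the tenth most abundant gene line. It was measured at 3493, 3425 and 3478 RPM in replicates 1, 2 and 3 and took 65.1% of all reads in the 14 genes of the 20S core particle. Per kb of exon it stood at 3319 RPM, which was 33.1-fold the median of the other 13 core subunits (100.4 RPM per kb). Those 13 subunits ranged from 29.2 RPM per kb (PSMB2) to 225 RPM per kb (PSMB4), and PSMB6 and PSMB7, the other catalytic subunits, stood at 92.9 and 156 RPM per kb. All 3 libraries showed this level of PSMB5, although their label reads wild-type. Reads of an introduced PSMB5 copy and reads of the native gene cannot be told apart in these values, so its level is not read as a baseline level, although the shares of reads below include it.

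The reads were spread over many genes. The single most abundant gene held 1.26% ± 0.0113 of the library total (SD, n = 3), the 10 most abundant 6.26% ± 0.0589, the 100 most abundant 20.2% ± 0.143 and the 1000 most abundant 46.7% ± 0.187. The 30 most abundant lines together took 11.3% ± 0.0922. They consisted of 9 mitochondrially encoded genes (4.22% of reads), 9 cytosolic ribosomal proteins (2.43%), 3 translation elongation factors (1.66%) and 9 others. Among the others was the line named MIR3654, which spans the elongation factor EEF1G and held nearly the same reads, so these count in both.

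The gene line with the most reads was MT-CO1, the mitochondrial gene for the core subunit of cytochrome c oxidase, with 12725, 12656 and 12504 RPM in replicates 1, 2 and 3. EEF1A1, which delivers aminoacyl-tRNA to the ribosome, followed with 8955, 8923 and 8747 RPM. XIST, the long non-coding RNA that coats the inactive X chromosome, was the third with 7776, 8081 and 8290 RPM. In reads held, the ranges of these 3 genes did not overlap one another. MT-ND4, a subunit of respiratory complex I, averaged 6892 ± 124 RPM, and EEF2, which moves the ribosome along the mRNA, averaged 5092 ± 74.8 RPM (SD, n = 3 each). MT-ATP6, RPS2 and MT-CO3 lay between 4353 and 5027 RPM in every library, and the range of MT-CO3 overlapped those of MT-ATP6 and RPS2, which did not overlap each other. Below PSMB5 came HNRNPA1 (3010 ± 42.2 RPM), an RNA-binding protein of the spliceosome pathway, the cytoplasmic actin ACTG1 (2864 ± 39.2 RPM), and NPM1 (2758 ± 85.5 RPM), the nucleolar protein nucleophosmin. GAPDH of glycolysis (2301 ± 31.2 RPM), the ribosome-associated scaffold RACK1, listed as GNB2L1 (2174 ± 21.7 RPM), and the chaperone HSP90AB1 (2122 ± 10.8 RPM) were lower among the 30, between ribosomal proteins and mitochondrial genes.

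**Figure D2:**
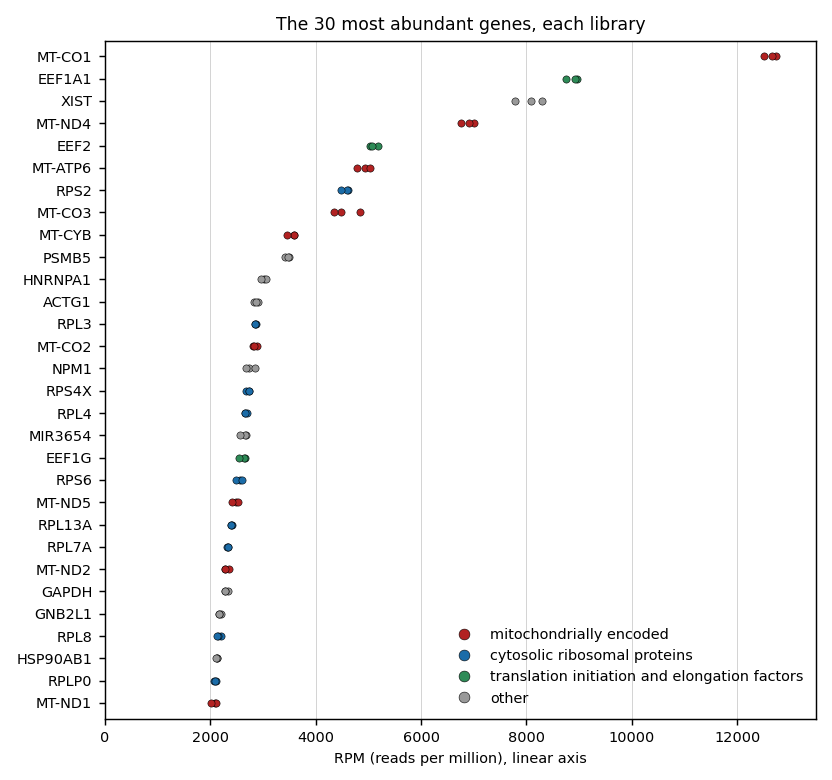
RPM (linear axis) of the 30 most abundant gene lines, from the highest at the top, with a point for each of the 3 untransduced libraries and colours for the class of the gene. MT-CO1 stood at 12504 RPM or more in each library, and the 3 points of most genes lie close together, MT-CO3 and XIST being the widest on the log2 scale.

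Length changed the order. Per kb of exon, 9 of the 20 highest lines were mitochondrially encoded and 8 were cytosolic ribosomal proteins. MT-CO1 reached 8189 ± 73.2 RPM per kb, MT-ATP6 7215 ± 180, MT-CO3 5815 ± 322 and RPS2, a protein of the small ribosomal subunit, 4824 ± 69.9 (SD, n = 3). EEF1A1 stood at 2527 ± 31.9 RPM per kb and XIST, whose transcript is 19245 bases long, at 418 ± 13.4. Some lines shared reads. MT-ATP8 (9498 RPM per kb) overlaps MT-ATP6 on the mitochondrial genome in part. The line named SNORA67 (1231 RPM) overlaps the initiation factor EIF4A1 (1244 RPM), and the line named MIR3654 (2632 RPM) spans EEF1G (2614 RPM), so that each of these 2 pairs had nearly the same reads and cannot be separated. In all, 6998 lines overlapped another line on the same strand and together held 18.8% ± 0.0374 of the reads.

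The 5′ ends of the most abundant nuclear transcripts were examined because mRNAs of the translation machinery are known to start with a C followed by a run of pyrimidines, the 5′ terminal oligopyrimidine (TOP) motif, through which mTOR signalling controls their translation. Sequences were taken from RefSeq (GRCh38.p14) and were matched for 9995 of 12438 present nuclear protein-coding genes (80.4%). The motif searched was a C at the annotated first base followed by at least 5 bases that are each C or T, on the transcribed strand only. The sequences shown run from 10 bases before the annotated first base to 20 bases from it on, with the pyrimidine run in capitals, for 8 of the most abundant genes that hold it:
EEF1A1: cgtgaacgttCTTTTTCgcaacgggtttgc
EEF2: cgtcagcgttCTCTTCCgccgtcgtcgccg
NPM1: agcctgcgtcCTTTCCCTggtgtgattccg
RPS6: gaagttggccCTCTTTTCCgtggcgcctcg
RPL13A: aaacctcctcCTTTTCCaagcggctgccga
RPL7A: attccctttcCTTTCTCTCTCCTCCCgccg
GNB2L1: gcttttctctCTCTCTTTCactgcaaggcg
RPLP0: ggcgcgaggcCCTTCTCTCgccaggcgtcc

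For contrast, the same window is given for 4 of the most abundant genes that lack the motif at the annotated base, of which 3 are ribosomal proteins:
ACTG1: cgcggtcggtctcagtcgccgctgccagct
RPL3: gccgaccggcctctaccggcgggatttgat
RPS4X: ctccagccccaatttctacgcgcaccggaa
RPL4: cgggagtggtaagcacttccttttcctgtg

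The search used the annotated base only, and starts in these cells were not measured. The windows with the motif lie on chromosome 6 at 73521013-73521042 (EEF1A1, minus strand), on chromosome 19 at 3985444-3985473 (EEF2, minus) and 49487598-49487627 (RPL13A, plus), on chromosome 5 at 171387839-171387868 (NPM1, plus) and 181243887-181243916 (GNB2L1, minus), on chromosome 9 at 19380217-19380246 (RPS6, minus) and 133348208-133348237 (RPL7A, plus), and on chromosome 12 at 120201092-120201121 (RPLP0, minus). Those without it lie on the minus strand, on chromosome 17 at 81512780-81512809 (ACTG1), 22 at 39319604-39319633 (RPL3), X at 72277229-72277258 (RPS4X) and 15 at 66504836-66504865 (RPL4). Each window is set by the RefSeq start, and most lie within the deposited gene line, which begins further upstream.

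Of the 100 most abundant genes with a sequence, 40 (40%) held the motif. The share was 8.89% among the next 900, 4.28% among the 4000 after those and 2.74% below, against 4.28% of all 9995 genes and 3.0% of all 27326 RefSeq promoter entries. It was held by 43 of 68 cytosolic ribosomal protein genes (63.2%) and by 11 of 56 initiation and elongation factors (19.6%). Without these classes, 7 of the remaining 46 genes of the top 100 held it (15.2%). TATAAA on the transcribed strand between 40 and 11 bases upstream was found in 4% of the top 100 and in 1.41% of all 9995. GGGCGG, the core of a GC box, was found on either strand of the 300 bases in 67% of the top 100 and in 72.1% of all. These are matches of letters and no evidence of translation or of a bound factor.

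Protein-coding genes outside the 17 functional classes took 56.4% of reads on average. Sorted by function, cytosolic ribosomal proteins took the largest share of reads among the 17 classes, with 9.49%, 9.48% and 9.42% in replicates 1, 2 and 3. Of their 87 lines 85 were present, and their median of 1268 RPM per kb was 160-fold the median of all present genes (7.95 RPM per kb). The quartiles of the class were 512 and 1818 RPM per kb. Per kb the lowest present members were the paralogs RPS27L (6.52 RPM per kb) and RPL39L (14.4 RPM per kb). Their order depended on the lengths used, 6110 and 729 bases, since in reads RPS27L (39.8 RPM) was above RPL39L (10.5 RPM). Mitochondrially encoded genes, the 13 protein-coding genes of the mitochondrial genome, took 4.65% ± 0.0837 (SD, n = 3) with a median of 4158 RPM per kb. Within them MT-ND6, the only protein gene transcribed from the opposite strand to the others, was lowest at 517 RPM per kb (271 RPM). The nuclear-encoded respiratory chain and ATP synthase genes took 1.09% ± 0.00268, with 93 of 100 present and a median of 100.1 RPM per kb. ATP5B, the catalytic beta subunit of ATP synthase, led them with 762 RPM.

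Translation initiation and elongation factors took 3.25% ± 0.0273 of the reads. Per kb the class ran from EEF1A1 (2527 RPM per kb) down to EIF5A2, a paralog of EIF5A, at 1.31 RPM per kb, and its quartiles differed 10.9-fold per kb. HNRNP and splicing factor genes took 2.84% ± 0.00584 with 96 lines present, led in reads by HNRNPA1 and HNRNPA2B1 (2042 RPM). Chaperones took 2.12% ± 0.0114, led by HSP90AB1, HSP90AA1 (1817 RPM) and the cyclophilin PPIA (1269 RPM). Glycolysis took 1.04% ± 0.0115, and the aminoacyl-tRNA synthetases, all 20 of which were present, took 0.543% ± 0.000894. Mitochondrial ribosomal proteins, all 78 of them present, took only 0.494% ± 0.00169 with a median of 42.8 RPM per kb, well below their cytosolic counterparts.

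Some large families had a lower median level per kb than all present genes (7.95 RPM per kb). The ZNF-named zinc finger proteins, mostly DNA-binding repressors, had 441 of 552 lines present and took 0.953% ± 0.00616, with a median of 3.05 RPM per kb. Solute carriers had 224 of 374 present, against 63.9% of all protein-coding lines, and took 1.07% ± 0.00511. Their median of 5.97 RPM per kb was nearer to that of all present genes. The mitochondrial ADP/ATP carriers SLC25A6 (683 RPM) and SLC25A5 (603 RPM) held the most reads, followed by the mitochondrial phosphate carrier SLC25A3 (569 RPM) and the plasma membrane amino acid transporters SLC1A5 (392 RPM) and SLC7A5 (316 RPM).

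Histone genes took 0.257% ± 0.00133, and their level followed the type of gene. Of the 66 lines with HIST names, which are the clustered genes expressed with DNA replication, 12 were present, with at most 37.9 RPM each and 118.1 RPM in sum. The 19 other histone lines had 10 present and summed to 2450 RPM, led by the variants H2AFZ (623 RPM) and H3F3B (513 RPM). Replication-dependent histone mRNAs end in a stem-loop and carry no poly(A) tail, while the libraries were made from polyadenylated RNA. The part of this selection in their low level was not tested.

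Long non-coding RNAs took 2.05% ± 0.0321 of the reads, of which XIST alone held 39.2% ± 0.660. Without XIST the share was 1.25% ± 0.00740. XIST lies on chromosome X at 73820651-73852753 on the minus strand, and it made up 18.3% ± 0.426 of the reads on that chromosome. TSIX, its antisense partner, was at 33.9 RPM, and whether counting used strand is not given in the sources used here. Among lines without an overlapping gene on their strand, SNHG29, listed as LRRC75A-AS1, followed with 570 ± 3.62 RPM. MALAT1, a nuclear speckle RNA, came after it with 369 ± 2.36 RPM. GAS5 (288 ± 4.02 RPM) and NORAD, listed as LINC00657 (249 ± 4.27 RPM), which sequesters PUMILIO proteins, were next among those without an overlapping gene on their strand. SNHG genes, spliced hosts of small nucleolar RNAs, had 18 of 24 lines present and summed to 1993 RPM.

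Lines with the name of a small RNA took 0.150% ± 0.000768, most of it in SNORA67, whose reads overlap EIF4A1. MIR6820 (120 RPM) likewise overlaps POLR2F (112 RPM). Such lines span kilobases and do not measure the mature small RNA. RN7SL2 and RN7SL1, the RNA of the signal recognition particle, stood at 22.6 ± 3.60 and 19.3 ± 1.12 RPM in these poly(A)-selected libraries and are near-identical copies, so that their split is uncertain. The 1915 lines with no GENCODE match held 0.312% ± 0.00333 of the reads, led by RP6-24A23.7 on chromosome X (893 ± 26.3 RPM), which overlaps another line, RP6-24A23.6.

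Kidney identity was examined through 5 lists of markers. Of their 59 genes 24 were present and 22 near absent, 15 of them with 0 reads in every library. For comparison, 63.9% of all protein-coding lines were present. The nephron progenitor list, which marks the embryonic mesenchyme that gives rise to nephrons, had 9 of 13 members present (69.2%), which is close to the share of all protein-coding lines. At 1 RPM this was the highest share of the 19 lists, but at 2 RPM it was 8 of 13 against 13 of 20 for the neuron list, and at 1 RPM per kb 6 of 13 against 12 of 20. SIX2, a homeodomain factor that maintains nephron progenitors, was measured at 18.6, 16.9 and 19.5 RPM in replicates 1, 2 and 3. SALL1 (24.8 ± 0.603 RPM), CITED1 (14.3 ± 0.965 RPM), HOXD11 (12.8 ± 1.16 RPM) and WT1 (4.56 ± 0.271 RPM) were present too, all of them transcriptional regulators of that field (SD, n = 3 each). EYA1, PAX2 and LHX1 were present at 3.17, 2.80 and 1.39 RPM. In contrast PAX8, a factor of the renal vesicle and of most renal epithelium, had 0 reads in all 3 libraries, and OSR1, the earliest factor of intermediate mesoderm, averaged 0.0401 RPM.

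Markers of the mature nephron differed by segment. In the proximal tubule list 4 of 14 members were present and 6 near absent. LRP2, the endocytic receptor megalin, stood at 20.3 ± 1.58 RPM and its partner cubilin, CUBN, at 1.63 ± 0.469 RPM, while HNF4A and the phosphate and organic anion transporters SLC34A1, SLC22A6 and SLC22A8 had 0 reads in every library. No member of the 9-gene loop of Henle and distal tubule list was present. UMOD, SLC12A1 and SLC12A3, which encode uromodulin and the sodium chloride cotransporters targeted by diuretics, each averaged 0.0109 RPM or less. In the ureteric bud and collecting duct list 5 of 14 were present, led by GATA3 (9.46 ± 0.598 RPM) and WNT11 (3.93 ± 0.560 RPM), while AQP2 and AVPR2 had 0 reads. The podocyte list had 6 of 9 present, but the adaptor CD2AP (62.3 ± 1.12 RPM) and the sialomucin PODXL (38.3 ± 0.739 RPM) are found in other cells too. NPHS1, the slit diaphragm protein nephrin that defines the cell, was at 0, 0.246 and 0 RPM in replicates 1, 2 and 3. The share of members present was thus 66.7% for the podocyte list, close to that of the progenitor list and to the 63.9% of all protein-coding lines. It was 35.7% for the ureteric bud and collecting duct, 28.6% for the proximal tubule and 0% for the distal segments. The lower shares depended on the limit. At 2 RPM, 3 of 14 ureteric bud and collecting duct members and 2 of 14 proximal tubule members were present. At 0.5 RPM, 2 of 9 distal members were present.

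**Figure D3:**
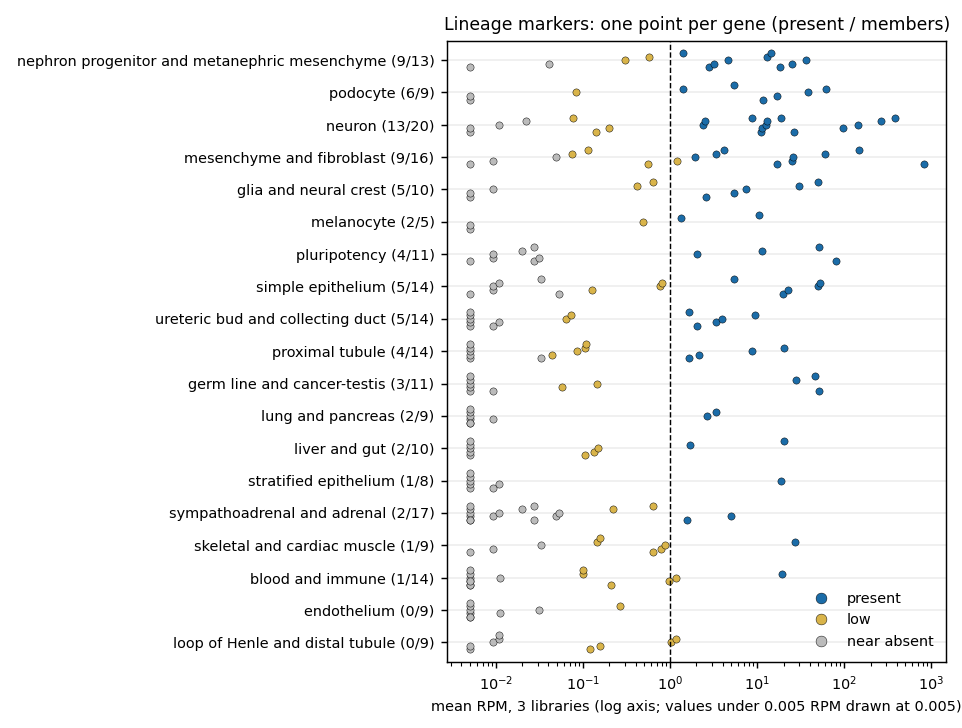
Mean RPM over the 3 untransduced libraries (log axis) of each marker gene in 19 lineage lists, ordered by the share of members present, with the numbers of present members and of all members in brackets. Points are blue for present, yellow for low and grey for near absent genes, values under 0.005 RPM are drawn at 0.005, and the dashed line marks 1 RPM; the nephron progenitor list stands at the top with 9 of 13, and the endothelium and distal tubule lists have none.

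The neuron list summed to 990 RPM, against 1101 RPM for the mesenchyme list and less for each of the others. Of its 20 members 13 were present (65%), nearly the share of all protein-coding lines. The medium neurofilament NEFM was measured at 382, 375 and 374 RPM in replicates 1, 2 and 3 (115 RPM per kb), and the light neurofilament NEFL averaged 97.0 ± 1.23 RPM. UCHL1, a neuronal deubiquitinase, stood at 145 ± 1.60 RPM, and STMN1, a microtubule destabiliser that proliferating cells also express, at 264 ± 7.04 RPM. SYP, ENO2, TUBB3, INA, NCAM1 and SYT1 lay between 10.9 and 26.3 RPM on average. The list was not present as a whole: DCX and ELAVL4 had 0 reads, STMN2 and ELAVL3 were near absent, and the heavy neurofilament NEFH averaged 0.141 RPM.

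Sympathoadrenal and adrenal markers were mostly missing, with 13 of 17 near absent. The catecholamine enzyme DBH and the factor PHOX2A had 0 reads, as did the adrenocortical genes CYP21A2, MC2R and NR0B1. TH averaged 0.00912 RPM. HAND2 (5.03 ± 0.827 RPM) and CHGA (1.57 ± 0.160 RPM) were the members present. Of the glial and neural crest markers 5 of 10 were present, led by the crest factor TFAP2A (49.3 ± 0.807 RPM) and the glutamate transporter SLC1A3 (29.8 ± 1.73 RPM). FOXD3 and OLIG2 stood at 7.46 and 5.33 RPM, while SOX10 and S100B had 0 reads.

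Some epithelial and some mesenchymal markers were present. Of the simple epithelium list 5 of 14 were present: the keratins KRT18 (52.2 ± 2.87 RPM) and KRT8 (22.4 ± 2.22 RPM), the junction proteins TJP1 (49.8 ± 2.87 RPM) and OCLN (19.7 ± 0.615 RPM), and E-cadherin, CDH1 (5.39 ± 0.286 RPM). EPCAM averaged 0.0530 RPM, KRT7 and KRT19 0.00912 RPM each, and GRHL2, which maintains the epithelial state, had 0 reads. Of the mesenchyme list 9 of 16 were present (56.25%). This share and the 35.7% of the simple epithelium list were both below the 63.9% of all protein-coding lines. Vimentin, VIM, was measured at 834, 804 and 807 RPM, COL6A1 averaged 148 ± 1.13 RPM and N-cadherin, CDH2, 59.7 ± 2.52 RPM. Per kb, CDH2 was 13.3 ± 0.714 times as high as CDH1 (SD, n = 3). The fibroblast genes COL1A2, COL3A1 and THY1 were near absent, although COL1A1, whose product pairs with that of COL1A2 in type I collagen, was present at 25.4 ± 2.40 RPM.

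The other tissue lists named here had few members present or none. The cardiac factor NKX2-5 was measured at 29.1, 27.7 and 25.3 RPM in replicates 1, 2 and 3, while MYH7 and TNNT2 were near absent and MYOG had 0 reads. It was the only present member of the 9-gene muscle list, in which 5 members were low. At a limit of 0.5 RPM, 3 members of that list were present. Of the 10-gene liver and gut list 2 members were present. The intestinal factor CDX2 stood at 20.4 ± 2.31 RPM with MUC2 at 0 reads, the lung and thyroid factor NKX2-1 at 3.33 ± 0.210 RPM with SFTPC and SCGB1A1 at 0, and the pancreatic factor PDX1 at 2.65 ± 0.462 RPM with INS and GCG at 0. The stem cell factor receptor KIT (19.2 ± 0.433 RPM) was the only member of 14 present among blood and immune markers, PTPRC, CD3E, MS4A1 and HBB having 0 reads. No member of the 9-gene endothelial list was present, CDH5, TEK, TIE1 and ERG having 0 reads. KRT10 (18.5 ± 1.05 RPM) was the only stratified epithelial marker of 8.

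Among 11 pluripotency genes 4 were present. LIN28B, which blocks let-7 maturation, stood at 79.3 ± 1.56 RPM and the de novo methyltransferase DNMT3B at 50.7 ± 0.887 RPM. SOX2 was measured at 9.87, 9.93 and 13.98 RPM in replicates 1, 2 and 3, so that replicate 3 stood above the others. POU5F1 and NANOG, the core factors of the state, averaged 0.0310 and 0.0274 RPM. The cancer-testis genes PRAME (51.7 ± 2.94 RPM), MAGEA3 (46.1 ± 2.71 RPM) and MAGEA6 (27.7 ± 2.43 RPM) were present, MAGEA3 and MAGEA6 being near-identical copies whose split is uncertain. DAZL, PIWIL1, MAGEA4 and CTAG1B had 0 reads.

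HOX genes, which record position along the body axis, were broadly transcribed. Of 39 genes 34 were present, namely 10 of 11 in the HOXA cluster, 9 of 10 in HOXB, 8 of 9 in HOXC and 7 of 9 in HOXD. The share of all protein-coding lines present was 63.9%. HOXB9 was highest with 106.8, 103.4 and 104.04 RPM in replicates 1, 2 and 3 (40.5 RPM per kb). HOXA9 (48.5 ± 4.21 RPM) and HOXD13 (43.9 ± 1.99 RPM) led their own clusters, both by RPM and per kb, and HOXC4 led HOXC with 26.0 ± 1.68 RPM. HOXB1 had 0 reads, and HOXA2, HOXC12, HOXD1 and HOXD12 were low. Neighbouring HOX lines overlap in part, which limits the separation of adjacent genes.

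HEK-293T cells are a common host for receptor and channel assays, so their own receptors were counted. Of 143 entries in 9 receptor lists 67 were present (46.9%), below the 63.9% of all protein-coding lines. Muscarinic receptors, often cited as endogenous to HEK-293 cells, had no member present, with CHRM3 at 1.02, 0.602 and 1.44 RPM. Of 9 adrenergic receptors 2 were present, led by ADRA2C (19.1 ± 1.63 RPM). The purinergic receptors P2RY11 (15.9 ± 0.365 RPM) and P2RY1 (15.8 ± 0.149 RPM), the ATP-gated channel P2RX4 (13.8 ± 0.495 RPM) and the adenosine receptor ADORA2B (12.1 ± 0.723 RPM) were among 7 of 19 purine receptors present. The lysophosphatidic acid receptor LPAR3 (31.7 ± 1.18 RPM) led 6 of 11 lysophospholipid receptors present. Receptors for dopamine, serotonin and opioids had 2 of 18 present, DRD4 and HTR6, both below 2 RPM in each library. Of 17 adhesion and frizzled receptors 16 were present, led by the latrophilin ADGRL1, listed as LPHN1 (118.3 ± 3.15 RPM).

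Receptor tyrosine kinases had 27 of 39 members present. PTK7, a planar polarity receptor, stood at 102 ± 0.636 RPM, FGFR3 at 90.4 ± 2.34 RPM and IGF1R at 83.5 ± 3.97 RPM, while ALK and ROS1 had 0 reads. Of 10 Toll-like receptors TLR9 (13.3 ± 1.53 RPM) was the only one present, and TLR2 and TLR4 had 0 reads. The DNA sensing pair CGAS, listed as MB21D1, and STING1, listed as TMEM173, were low, with 0.0639 and 0.254 RPM, whereas MAVS, the adaptor of RNA sensing, stood at 116 ± 3.91 RPM.

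Channels had 49 of 94 entries present (52.1%), against 63.9% of all protein-coding lines. PIEZO1, a mechanosensitive cation channel, was measured at 144, 140 and 147 RPM in replicates 1, 2 and 3, while PIEZO2 was near absent at 0.0109 RPM. The acid-sensing channel ASIC1 stood at 60.4 ± 2.71 RPM, the T-type calcium channel CACNA1H at 45.2 ± 1.202 RPM and the sodium channel SCN8A at 8.27 ± 0.844 RPM. All 5 LRRC8 subunits of the volume-regulated anion channel were present, between 6.49 RPM (LRRC8E) and 29.0 RPM (LRRC8D), whereas CFTR had 0 reads.

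Where a function is served by several paralogs, the share of each in the family sum of RPM per kb showed which was used. Of 24 families, 10 had a member with more than 90% of the sum, 8 a member with 50 to 90% and 6 none above 50%. IRS4, a docking protein of the insulin receptor, was measured at 386, 391 and 396 RPM and held 97.6% ± 0.130 of its family, 55.5 ± 6.43 times the level of IRS2 per kb. EEF1A1 held 96.5% ± 0.0750 over EEF1A2, CKB 98.0% ± 0.0867 of creatine kinase and MYC 94.9% ± 0.535 of its family.

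Other families were divided among their members to different degrees. Per kb, the cytoplasmic actin ACTG1 was 2.58 ± 0.0515 times as high as ACTB, and LDHB, the heart-type lactate dehydrogenase subunit, 2.22 ± 0.0340 times as high as LDHA. ALDOA (99.2% ± 0.0393) and ENO1 (98.5% ± 0.0419) dominated the aldolases and enolases, while hexokinase was divided between HK1 (68.7% ± 0.354) and HK2 (31.2% ± 0.328). The B-type lamins LMNB1 and LMNB2 held 46.3% ± 1.05 and 42.3% ± 0.737, and LMNA, the lamin of differentiated cells, 11.4% ± 0.310. Among D-type cyclins CCND2 held 46.6% ± 0.163, CCND3 30.3% ± 0.349 and CCND1 23.0% ± 0.329. The largest SD of a share in any family was 1.40 percentage points, and in these families the 3 libraries gave the same order of the members named. Near-identical copies, such as HSPA1A and HSPA1B or CKMT1A and CKMT1B, share reads, and the values of each are uncertain.

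**Figure D4:**
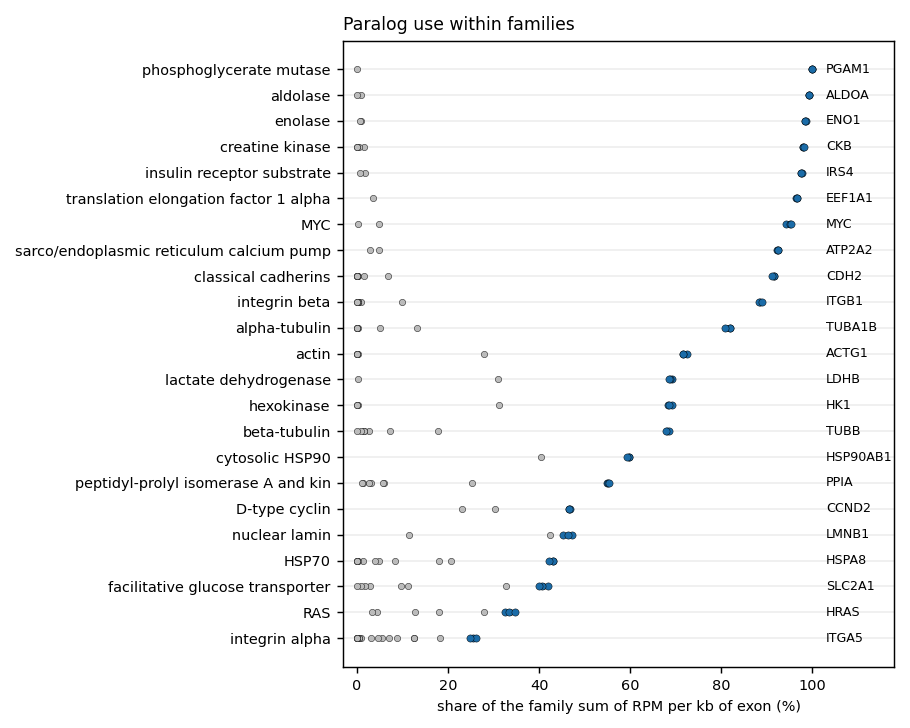
Share (%) of each member in the family sum of RPM per kb of exon, for all but 1 of the 24 families. Blue points are the largest member, named at the right, in each of the 3 untransduced libraries; grey points are the means of the other members. The shares of the largest members run from 25.4% (ITGA5) to 100% (PGAM1).

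Genes of the cell cycle were present throughout. All 16 replication licensing genes were present, against 63.9% of all protein-coding lines. They ran from ORC5 (28.9 ± 2.01 RPM) to MCM7, a subunit of the replicative helicase (529 ± 3.18 RPM). CDKN2A, the p16 and p14ARF locus, was measured at 263, 260 and 257 RPM in replicates 1, 2 and 3, while the cyclin-dependent kinase inhibitor CDKN1A stood at 24.3 ± 0.130 RPM. TERT, the catalytic subunit of telomerase, was present at 12.2, 14.3 and 13.8 RPM. Of 13 antigen presentation genes 9 were present (69.2%), which is close to the share of all protein-coding lines. HLA-C stood at 210 ± 1.10 RPM and B2M at 76.4 ± 2.48 RPM, while CD74 of the class II pathway had 0 reads. The immunoproteasome subunit PSMB8 had 0 reads in all 3 libraries, PSMB9 averaged 0.159 RPM and PSMB10 was present at 7.87 ± 0.570 RPM.

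By chromosome, chromosome 1 held the most reads (9.27% ± 0.00507), followed by chromosomes 17 (6.74% ± 0.0185) and 19 (6.11% ± 0.0592). The mitochondrial genome held 4.65% and chromosome X 4.4% ± 0.0392, or 3.59% ± 0.0136 without XIST. Among the autosomes and chromosome X, the median log2 RPM of present genes lay between 4.23 on chromosome 19 and 5.16 on chromosome 22. Chromosome 19 also had the largest share of its lines present among them (45.8%), and chromosome 21 the smallest (25.3%).

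The 3 libraries were close to each other. Over present genes the absolute difference between a pair of libraries had a median of 0.07 on the log2 scale for each of the 3 pairs, and Pearson's r of log2 RPM across genes was between 0.9965 and 0.9967, as a description across genes, which are not independent replicates. The median SD of log2 RPM was 0.26 for genes at 1 to 2 RPM, 0.06 at 10 to 50 RPM and 0.02 at 1000 RPM and above. Counting error alone would give 0.21, 0.05 and 0.01 at those levels if each read were an independent fragment. The chi-square per gene between libraries was 2.42 to 2.48 over at least 17127 genes on the same assumption. The low counts did not bear that assumption out, since more lines had 3 reads than 2, so it is not known by how much the spread exceeded sampling noise. The libraries differed in their values and totals, and all 3 were counted as separate samples, as labelled.

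Of 10084 genes with a mean of at least 10 RPM, only 1 differed by more than 1.5-fold between its highest and lowest library. This was the line named BCYRN1, which spans chromosome 2 from 47331060 to 47344517, far more than the 200 bases of that RNA, and so does not measure it alone. It had 47.3, 30.5 and 29.3 RPM in replicates 1, 2 and 3, replicate 1 standing above the others. The next widest were PRRG1, a transmembrane Gla protein (11.9, 17.8 and 12.04 RPM), high in replicate 2, SOX2, high in replicate 3, and RP11-290D2.6 (24.8, 17.6 and 18.1 RPM), high in replicate 1. Among the 30 most abundant genes MT-CO3 was widest, with 4482, 4841 and 4353 RPM.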

How the data were processed

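RNA-seq of polyadenylated RNA from 3 untransduced HEK-293T samples was analysed. According to the study's methods and the submitters' processing notes, reads were trimmed with cutadapt, aligned to GRCh38 with HISAT2 and quantified per gene in SeqMonk. The deposited values are log2 RPM, made by the authors. For the annotation release and the strand setting of the counts, nothing was stated. Whole reads were recovered from the steps of the values: 99.7 to 99.8% of values above 0 were whole to within 0.01 of a read. Lines with 0 reads are listed at 0.9 of a read and were set to 0. Low values held more lines at 1 read (1385 to 1448) and at 3 reads (620 to 687) than at 2 reads (419 to 440), so a read may not be an independent fragment.

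Lines were matched to GENCODE 44 by symbol (20512), older symbol (1406) or overlap of at least 0.5 on the same strand (11972), and 1915 stayed unmatched. Genes were described as means ± SD over 3 libraries with no test, since no groups were compared. Named genes were the 30 highest by RPM, the 20 highest per kb, the 10 widest at 10 RPM or more, up to 5 leading non-coding genes per biotype, the 20S core subunits, and up to 6 leading members of each of 68 lists with the near absent members of tissue lists. HOX genes, class members and other list members were chosen after their values were seen. The members and lists were chosen with earlier results of these data known. The rounding back to whole reads and the chi-square were tried on simulated independent reads with known library totals. The estimate of the worth of 1 read, on which the recovery rests, was not tested in this way. Python 3.11 was used with pandas and matplotlib. The 12 columns of other groups were not used. Some members of the lists are counted but their values are not reported here.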

Additional observations from a re-analysis of the deposited data

How the results depend on the processing

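No paired analysis was possible because a single group was described and no test was made. The number of genes present stayed within 1.5 times the reported count under limits of 0.5 RPM (14755), 2 RPM (12797), 10 reads (15448) and 1 RPM per kb (12429), and ranged from 13850 to 13876 when a library was left out. Of the lineage markers 74 were present, and 49 with 1 RPM per kb of union exon length, an alternative chosen after seeing the data, which uses a longer length per gene. Under 2 RPM 5 of 19 lineage lists moved by more than 1.5 times, and under 1 RPM per kb 6 did. The share of the 100 most abundant genes was 22.3% over listed genes alone, 20.1% without PSMB5 and 41.2% as a share of summed RPM per kb. That of cytosolic ribosomal proteins was 10.4% over listed genes and 22.0% of summed RPM per kb. IRS4 held 96.8% of its family by RPM and 94.1% by union exon length. Chromosome 14 held 2.86% of reads, and 2.53% without PSMB5. The largest member changed by RPM in 3 of 24 families: LMNB2 for LMNB1, NRAS for HRAS, also by union length, and ITGAV for ITGA5. The depth limits genes under 0.0987 RPM, and length limits any ranking by RPM.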
